A study of Homo sapiens with 6 samples.

Results

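The Wnt-binding receptor kinases ROR1, ROR2, RYK, PTK7 and MUSK were followed in MDA-MB-231 cells, an established triple-negative breast cancer line, with and without a knockdown of ROR1. The 5 genes were chosen by symbol among the 57445 genes of the deposited table, and all 5 were found in it. The column headers of both conditions name the pGIPZ vector. The paper describes the ROR1 knockdown as stable and states puromycin selection for the knockdown cells, but not for the control. The control cells (shCTL, 3 libraries) expressed a non-sense shRNA and the knockdown cells (shRor1, 3 libraries) a single shRNA against ROR1. No source used here states that the libraries of a condition came from separate cultures, so p-values measure the spread between these libraries, which may be technical. The sample labels describe the control as carrying an empty vector, and the column header of the control, but not that of the knockdown, holds the word DMSO. A difference in solvent between the conditions therefore cannot be told apart from the shRNA. Levels are given as TPM, which is a gene's share of all transcripts in a library, scaled to 1000000 and corrected for the length of the gene. The 3 libraries of a condition carry no number and are named by their order in the table.

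These 5 genes encode single-pass membrane receptors that bind Wnt ligands outside the Frizzled family. ROR1 and ROR2 carry a Frizzled-like cysteine-rich domain and are bound by Wnt5a, which signals through them without the need for β-catenin. RYK binds Wnts through a WIF domain, and PTK7 is a planar cell polarity receptor with immunoglobulin domains. In RYK and PTK7 the kinase domain is regarded as catalytically inactive, and the activity of ROR1 is regarded as weak or absent. MUSK is the muscle-specific kinase that organises the neuromuscular synapse in response to agrin, and it also has a Frizzled-like domain. ROR1 is an embryonic receptor with little expression in most adult tissues that has been linked to invasion of breast cancer cells.

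The sequence that separates ROR1 from its relatives in this experiment is the 19-base site of the shRNA. It is shown with 5 bases on each side, with the site in capitals, followed by the guide strand of the shRNA with its seed (bases 2 to 8) in capitals. The site was located with the targeting sequence given for the study's shRNA, and both sequences were read from GRCh37, the build to which the authors mapped the reads.

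ROR1 site: attccCATGGCAGATCCTATAAATaaaag

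Guide strand: aTTTATAGgatctgccatg

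The site lies at chr1:64606087-64606105 on the plus strand, within coding sequence in exon 6 of the 9 exons of the canonical ROR1 transcript, and occurs at 1 place in the genome. It is present in 2 of the 3 annotated ROR1 transcripts, and reads of the remaining transcript cannot be told apart from theirs in a gene-level value. The window of the canonical transcript of each other member that differs least from the site is shown next, in the orientation of the mRNA, with the bases that differ from the ROR1 site in capitals.

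ROR2: catTgTTgGtcctatTTGt

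RYK: TatTTATgatcctGtaCat

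PTK7: catggcagGGTctaCCaGA

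MUSK: catgATagaAGcAataaCt

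The closest windows matched the site at 12 of 19 bases in ROR2, RYK and PTK7 and at 13 of 19 in MUSK. The ROR2 window (chr9:94484924-94484942, minus strand) and the MUSK window (chr9:113565790-113565808, plus strand) lie in 3' UTRs, while those of RYK and PTK7 (chr6:43100293-43100311, plus strand) are coding. The RYK window spans an exon junction. In ROR2 there were 2 windows and in RYK 3 windows with as few differences, of which the one nearest the 5′ end is shown. Differences of 7 bases are common, since 20170 of 64460 annotated genes had a closest window with 7 differences, and 17 had one with 3, closer than which there was ROR1 alone. These counts took the closest window over all transcripts of a gene, of any length. The members were searched in the canonical transcript only. The 7-base word that pairs with the seed occurred 3 times in the canonical transcript of ROR1, once in its 3' UTR, and 0 times in those of the other 4 members.

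The members divided into 3 that the cells transcribe at clear levels and 2 that they hardly transcribe at all. PTK7 and RYK were the most abundant, ROR1 ranked 3 and MUSK ranked 4 in all 6 libraries, and ROR2 was at or next to 0. Of the 5 genes, 3 passed the filter on low values, at least 1 TPM in at least 3 libraries, which 16554 genes passed. These 3 were compared between shRor1 and shCTL by limma on log2(TPM + 1) with Benjamini-Hochberg adjustment over all 16554 genes. No member was called at an adjusted p of 0.05, where 0% of all tested genes were called. An unadjusted p under 0.05 was found for 472 genes (2.85%), of which 382 were higher (2.31% of those tested) and 90 lower (0.544%) in shRor1, and none was a member. ROR1 had an unadjusted p of 0.0151 with quantile normalization, 0.0252 with median ratio scaling, 0.0351 without the second shCTL library and 0.0195 without the third shRor1 library in limma, where its adjusted p was 0.997 or more. The higher genes were 80.9% of the 472, and with quantile normalization 53.9% and with median ratio scaling 60.5% of the genes under this p were higher. ROR2 and MUSK did not pass the filter and are given as values.

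ROR1 (ENSG00000185483.7, chromosome 1 from 64239688 to 64647181, plus strand), the target of the shRNA, checks the labels and is given first. The shCTL libraries held 15.42, 13.49 and 20.56 TPM of ROR1, against 9.34, 11.93 and 14.85 TPM with shRor1. The third shRor1 library lay above the second shCTL library, so the groups overlapped, while the first and second shRor1 libraries lay below every control. The means were 16.5 ± 3.65 and 12.04 ± 2.76 TPM (SD, n = 3). Set against the mean of the controls, the shRor1 libraries retained 56.6%, 72.3% and 90.1% of ROR1. On the log2(TPM + 1) scale limma gave a fold change of -0.43 with a standard error of 0.20, a 95% interval from -0.88 to 0.03 and an adjusted p of 0.984. By the exact two-sided permutation test p was 0.2, and 3 libraries against 3 cannot give less than 0.1. The interval includes 0 and stops short of a decrease by 1 on the log2 scale. ROR1 was lower in the direction of the labels, but the groups overlapped, so the check by its RNA was inconclusive. The paper reports a stable knockdown and shows ROR1 protein in the control and knockdown cells by western blot. It also reports less RhoA protein and less JNK phosphorylation with the knockdown. These are measures of protein, not RNA, and were not examined here. Only 186 of the 16554 tested genes (1.12%) had a fold change as low as that of ROR1 or lower, and in 1.3% all shRor1 libraries lay below all controls. As the RNA came from whole cultures, fewer cells with ROR1 and less ROR1 RNA per cell cannot be told apart.

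The spread of ROR1 between libraries was wide for its level. Its residual SD was 0.30 on the log2 scale, against a median of 0.15 among the 1754 tested genes with a mean TPM within 25% of its own, of which 87.3% varied less. By the same measure RYK was steady, with a residual SD of 0.06 against a median of 0.12, and PTK7 had 0.14 against 0.12. ROR1 was highest in the third library of either condition. These 2 libraries also had the most genes at 1 TPM or more in their condition, 16597 in shCTL and 17033 in shRor1, against 16036 to 16544 in the other 4 libraries. The part of this difference between libraries in the values of ROR1 was not tested.

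RYK (ENSG00000163785.8, chromosome 3 from 133784147 to 133969701, minus strand), the WIF-domain receptor, had 60.10, 59.52 and 55.12 TPM in shCTL and 57.23, 60.71 and 56.88 TPM in shRor1. The groups lay within each other, with means of 58.2 ± 2.72 and 58.3 ± 2.12 TPM (SD, n = 3). Its log2 fold change was 0.00 (standard error 0.07, 95% interval -0.17 to 0.17, adjusted p = 0.998 from limma), and the sign depended on the scaling, with -0.03 after quantile normalization and -0.05 after median ratio scaling. A processed pseudogene on chromosome 17, RYKP1, shares 89 of the 8196 distinct 50-base windows of the RYK transcripts (1.09%), and it was listed at 0.09 TPM or less.

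PTK7 (ENSG00000112655.11, chromosome 6 from 43044045 to 43129457, plus strand), the planar cell polarity receptor, had 54.44, 61.69 and 69.02 TPM in shCTL and 61.93, 62.25 and 69.63 TPM in shRor1. The first shCTL library was the lowest and the others overlapped. The means were 61.7 ± 7.29 and 64.6 ± 4.36 TPM (SD, n = 3). In limma PTK7 had a log2 fold change of 0.07 with a standard error of 0.10, a 95% interval from -0.17 to 0.31 and an adjusted p of 0.984. Without the first shCTL library it was -0.02.

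MUSK (ENSG00000030304.8, chromosome 9 from 113431059 to 113568838, plus strand) had values of 0.27, 0.14 and 0.23 TPM with shCTL against 0.21, 0.10 and 0.16 TPM with shRor1. The groups overlapped (exact two-sided permutation test on log2(TPM + 1), p = 0.4). ROR2 (ENSG00000169071.10, chromosome 9 from 94325373 to 94712510, minus strand) had 0, 0.01 and 0.01 TPM in shCTL and 0.01, 0 and 0.01 TPM in shRor1, where 0.01 is the smallest step of the table. ROR2, the closest relative of ROR1, was thus at or next to 0 in every library of both conditions. Neither ROR1 nor ROR2 shares a 50-base window with a transcript of another annotated gene, so that reads of the one could not have been assigned to the other when they matched perfectly.

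**Figure D1:**
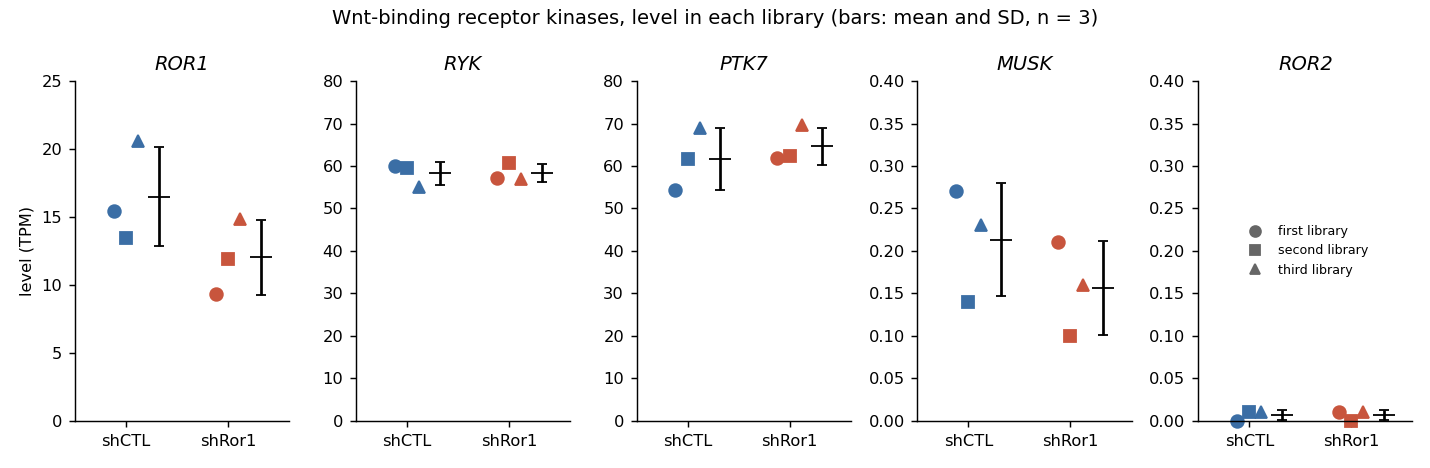
Level in TPM (vertical axis, from 0, with a scale for each gene) of the 5 members in the 3 shCTL (blue) and 3 shRor1 (red) libraries. Symbols mark the order of a library in the table and black bars the mean and SD. ROR1 is lower in 2 of 3 shRor1 libraries than in any control, RYK stays between 55.12 and 60.71 TPM, and ROR2 does not exceed 0.01 TPM.

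Because TPM values depend on the total of a library, the members were also compared with each other within a library, in 5 ratios. Those of ROR1 to RYK and to PTK7 alone were planned as alternatives to the first, and those of PTK7 to RYK and of ROR1-AS1 to ROR1 were added after the values were seen. The ratio of ROR1 to the sum of RYK and PTK7 was 0.135, 0.111 and 0.166 in shCTL and 0.0784, 0.0970 and 0.117 in shRor1. The difference of the mean log2 ratio was -0.49, with SDs of 0.29 in both groups, and the groups overlapped (exact two-sided permutation test, p = 0.2). With RYK alone as the denominator it was -0.46 (exact permutation test, p = 0.3). With PTK7 alone it was -0.53, and all 3 shRor1 libraries, at 0.151 to 0.213, lay below the controls, at 0.219 to 0.298 (exact permutation test, p = 0.1, the smallest possible). The second shCTL library and the third shRor1 library were next to each other in this ratio, at 0.219 and 0.213. The ratio of PTK7 to RYK was 0.906 to 1.252 in shCTL and 1.03 to 1.22 in shRor1.

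Taken as shares of the summed TPM of the 5 members, ROR1 made up 12.01 ± 2.10% in shCTL and 8.86 ± 1.62% in shRor1 (SD, n = 3). RYK made up 42.8 ± 4.23% and 43.2 ± 2.63%, and PTK7 45.1 ± 2.97% and 47.8 ± 1.56%, while MUSK stayed under 0.21% in every library. The sum itself was 137 ± 7.52 TPM in shCTL and 135 ± 6.41 TPM in shRor1 (exact permutation test, p = 0.8). Most of the transcripts of this receptor group in MDA-MB-231 cells were therefore those of RYK and PTK7 in both conditions.

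The gene ROR1-AS1 (ENSG00000223949.2, chromosome 1 from 64560062 to 64637025) is transcribed from the opposite strand of the ROR1 locus. It contains the shRNA site within an intron and shares 0 exonic bases with ROR1 in the annotation. It had 3.18, 3.71 and 4.11 TPM in shCTL and 4.30, 4.67 and 4.32 TPM in shRor1. All shRor1 libraries lay above all controls, which held for 6.48% of the tested genes in this direction and for 7.78% in either. In limma ROR1-AS1 had a log2 fold change of 0.22 with a standard error of 0.12 and an adjusted p of 0.984, and the exact permutation test gave p = 0.1, the smallest possible. The ratio of ROR1-AS1 to ROR1 was 0.200 to 0.275 in shCTL and 0.291 to 0.460 in shRor1. The library kit keeps the strand of the RNA, but the sources used here do not state whether the strand was used in the counting. Without it, reads from introns of one gene could count for the other. The other genes within the span of a member were processed pseudogenes and small RNA genes, none above 0.18 TPM in any library.

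**Figure D2:**
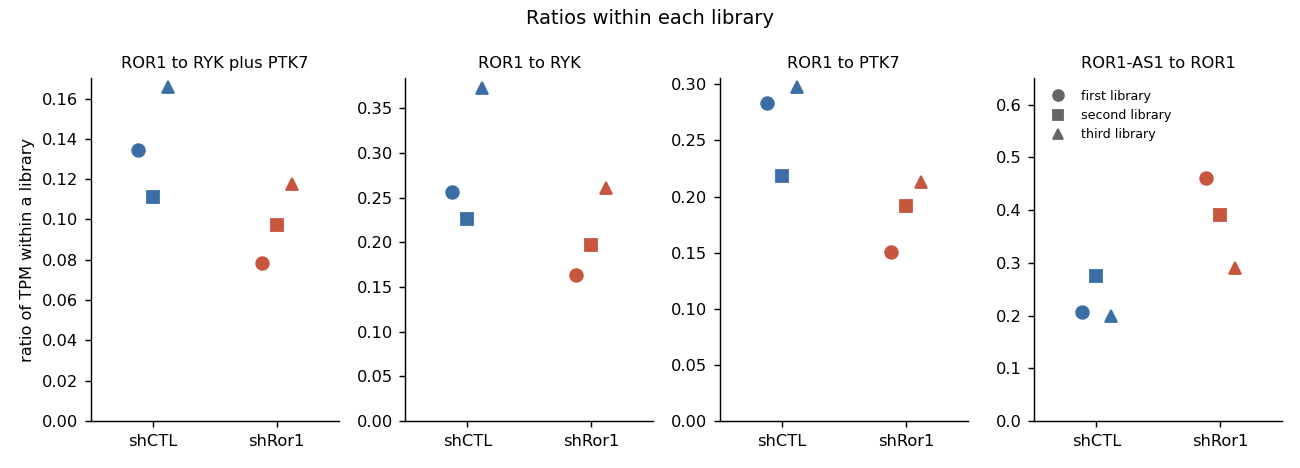
Ratio of TPM values within each library (vertical axis, from 0) for ROR1 against RYK plus PTK7, RYK and PTK7, and for ROR1-AS1 against ROR1. Blue marks shCTL, red shRor1, and the symbols the order of the library. Only the ratio of ROR1 to PTK7 and that of ROR1-AS1 to ROR1 separate the 2 groups.

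As TPM is corrected for gene length, the members could be placed among all 58 human receptor tyrosine kinases. Of these, 29 passed the filter and 27 reached 1 TPM in every shCTL library. The highest were AXL with 396 ± 8.05 TPM, EPHA2 with 144 ± 10.8 TPM and EGFR with 84.2 ± 5.75 TPM (SD, n = 3, shCTL), receptors for Gas6, ephrins and EGF. PTK7 was 4 and RYK 5 in this order, between EGFR and MET, the receptor of hepatocyte growth factor. The range of PTK7 (54.4 to 69.0 TPM) covered that of RYK (55.1 to 60.1 TPM) and met that of MET (50.2 to 57.0 TPM), so these 3 were not separated by their spread, whereas EGFR (78.0 to 89.4 TPM) lay above all of them. In shRor1 the order was PTK7, MET, RYK. There the range of MET (49.8 to 66.9 TPM) met both others, while PTK7 (61.9 to 69.6 TPM) lay above RYK (56.9 to 60.7 TPM) in all 3 libraries.

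ROR1 was 11 in the order in shCTL, between TYRO3 with 17.2 ± 0.751 TPM and EPHB2 with 15.3 ± 1.62 TPM (SD, n = 3), and its range met those of both. In shRor1 it was 16, between MERTK with 12.5 ± 0.639 TPM and LMTK2 with 9.95 ± 0.638 TPM. There the range of ROR1 (9.34 to 14.85 TPM) covered those of MERTK (11.88 to 13.15 TPM) and LMTK2 (9.52 to 10.68 TPM). Its place in the order was thus not separated by the spread in either condition. MUSK was 37 in shCTL and 41 in shRor1 and ROR2 was 52 and 51, among kinases that are near 0 and whose order has no meaning at this resolution. Of the 29 tested kinases none was called and none had an unadjusted p under 0.05 with all libraries and the reported scaling, with the exceptions for ROR1 under other settings as given for the members. There were 21 with a positive and 8 with a negative fold change, and their median was 0.04, where the median of all tested genes was 0.05. No other tested kinase had a fold change below that of ROR1, and the next, named after the values were seen, was FGFR4 with -0.10 (standard error 0.25). ROR1 had the lowest fold change of the 29 in 12 of 13 alternative fits, whereas the gene next to it varied. The fits with no filter, no trend and robust empirical Bayes leave these fold changes as they are, so their order was fixed beforehand. Without the first shRor1 library, the one with the least ROR1, FGFR4 had -0.29 and ROR1 -0.27. With quantile normalization 15 and with median ratio scaling 14 of the 29 had a positive fold change, so the excess of positive values depended on the scaling.

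**Figure D3:**
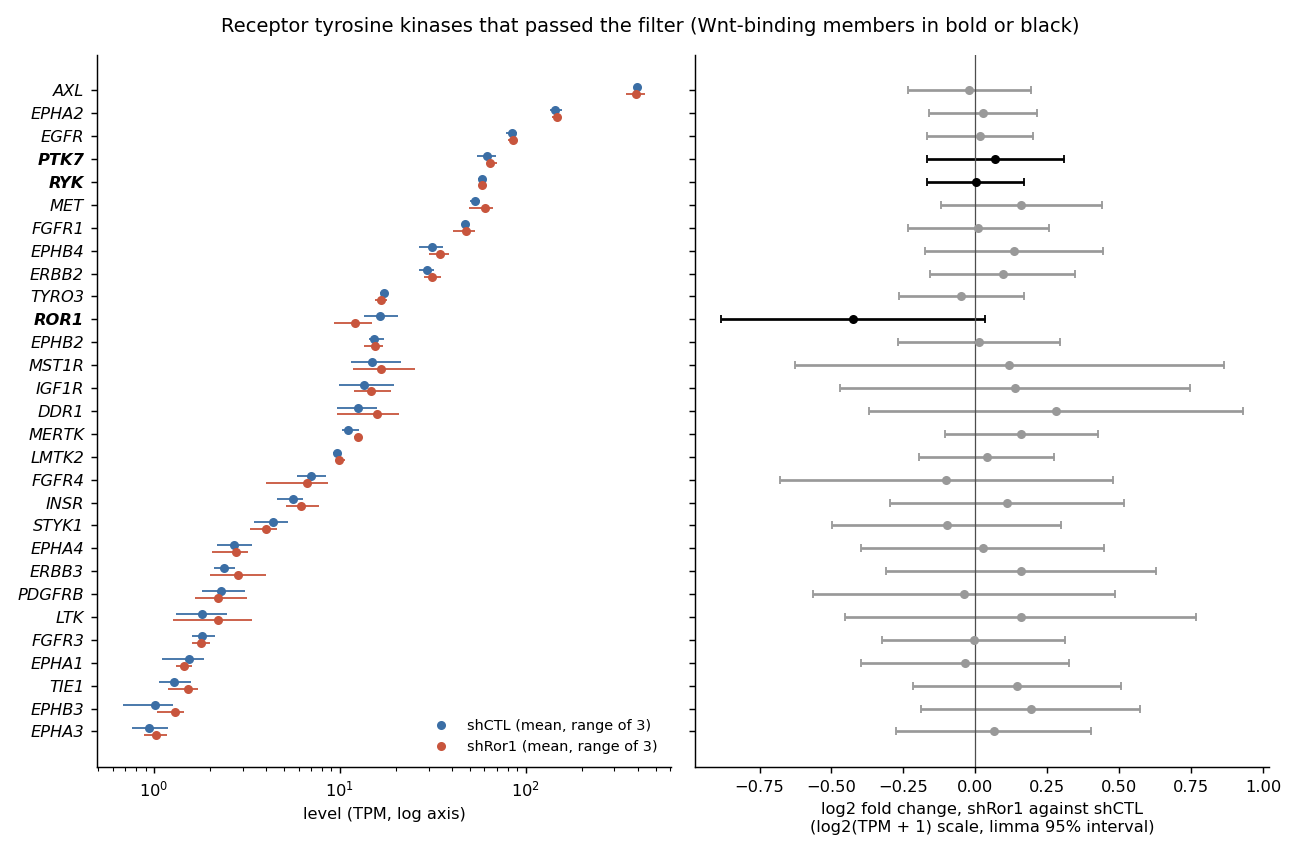
Left, level (TPM, logarithmic axis) of the 29 receptor tyrosine kinases that passed the filter, as mean (point) and range (line) of 3 shCTL (blue) and 3 shRor1 (red) libraries. Right, log2 fold change of shRor1 against shCTL with the 95% interval from limma, with the Wnt-binding members in black. ROR1 has the lowest fold change, -0.43, and every interval includes 0.

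The ligands and partners of these receptors were examined in lists chosen with earlier results of these data known. Of the 19 Wnt ligands, 7 were tested and 0 called, with a median log2 fold change of 0.16. The ligands with the highest levels were WNT5B with 11.3 ± 0.346 TPM in shCTL and 10.7 ± 0.753 TPM in shRor1, and WNT5A, the ligand of the Ror receptors, with 4.96 ± 0.427 and 5.88 ± 0.583 TPM (SD, n = 3). By library, WNT5A was at 4.80, 4.63 and 5.44 TPM with shCTL and 5.41, 5.69 and 6.53 TPM with shRor1, so that only the third control reached into the range of the knockdown. Its log2 fold change was 0.21 (standard error 0.12). WNT7B had 4.25 ± 0.720 and 5.18 ± 0.612 TPM. WNT2B, named after its values were seen, was the 1 tested ligand whose groups did not overlap, with 1.10 to 1.44 TPM in shCTL and 1.66 to 2.18 TPM in shRor1, which is 1 of 7 ligands where 7.78% of all tested genes did not overlap. The median of the ligands was 0.01 without the first and 0.26 without the third shCTL library.

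Of the 12 Frizzled receptors and LRP co-receptors, 10 were tested and 0 called, with a median of 0.05. FZD6 had 51.9 ± 3.49 TPM in shCTL and 51.2 ± 7.26 TPM in shRor1, close to the level of RYK and PTK7. LRP5 and LRP6, the co-receptors of the β-catenin branch, had 49.4 ± 15.7 and 23.6 ± 3.53 TPM in shCTL and 65.8 ± 31.7 and 24.97 ± 5.78 TPM in shRor1 (SD, n = 3).

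Among the 14 Dishevelled and planar cell polarity genes, through which Ror receptors and PTK7 signal, 12 were tested and 0 called, with a median of 0.07. DVL1, VANGL1 and SCRIB had 51.0 ± 2.54, 48.3 ± 2.10 and 47.7 ± 2.53 TPM in shCTL and 50.3 ± 8.63, 48.1 ± 4.03 and 48.1 ± 2.55 TPM in shRor1. The polarity cadherin CELSR3 was the 1 of these 12 with an unadjusted p under 0.05, where 2.85% of all tested genes were under it. It had 1.86, 2.24 and 2.09 TPM in shCTL and 2.52, 2.78 and 3.23 TPM in shRor1, without overlap. Of all tested genes, 6.48% were higher in shRor1 without overlap. The log2 fold change of CELSR3 was 0.33 (standard error 0.13, unadjusted p = 0.0404, adjusted p = 0.984 from limma).

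The 9 genes whose products bind Ror receptors were all tested, with 0 called and a median of -0.02. FLNA, the filamin that links Ror2 to actin, had 390 ± 9.51 and 386 ± 33.8 TPM, and CAV1 and CAVIN1, the coat proteins of caveolae, had 436 ± 58.1 and 305 ± 24.1 TPM in shCTL and 457 ± 73.3 and 298 ± 8.94 TPM in shRor1. The 9 genes for proteases that cleave receptors of this kind were also all tested, with 0 called and a median of 0.10, which was 0.02 without the third and 0.16 without the first shRor1 library. MMP14, a membrane protease that cleaves PTK7, had 120 ± 10.7 and 134 ± 11.9 TPM (log2 fold change 0.16, standard error 0.10), and the γ-secretase subunits APH1A and NCSTN had 117 ± 5.00 and 102 ± 10.8 TPM in shCTL and 118 ± 0.973 and 109 ± 9.86 TPM in shRor1.

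The medians of these lists moved with the scaling and with single libraries. With quantile normalization that of the Frizzled and LRP genes was -0.03, and with median ratio scaling that of the Ror-binding genes was -0.08, while the median of all tested genes went from 0.05 to 0.00 under both. Without the third shCTL library the median of the planar cell polarity genes was 0.13 and that of the Ror-binding genes 0.04, and without the first shCTL library that of the planar cell polarity genes was 0.01.

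The muscle pathway of MUSK was present only in part. Of its 10 genes 3 were tested and 0 called. AGRN, which encodes agrin, had 90.0 ± 25.1 TPM in shCTL and 96.3 ± 20.2 TPM in shRor1, its receptor LRP4 had 3.62 ± 0.368 and 3.64 ± 0.524 TPM, and CHRNB1, a subunit of the acetylcholine receptor, had 42.9 ± 3.04 and 41.9 ± 5.06 TPM (SD, n = 3). DOK7 and RAPSN, the partners of MUSK at the synapse, did not exceed 0.11 and 0.88 TPM, and of 5 skeletal muscle markers the regulators MYOD1 and MYOG were listed at 0 in all 6 libraries, ACTA1 and CKM did not exceed 0.20 TPM, and DES, the muscle intermediate filament gene, passed the filter with 0.54 to 3.23 TPM and overlapping groups.

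The line was checked against marker genes. The 6 basal and mesenchymal markers were all tested, with VIM at 2399 to 2920 TPM and CD44 at 359 to 534 TPM. The hormone receptor genes ESR1 and PGR did not exceed 0.21 and 0.01 TPM. Other genes of the luminal list were present, with KRT19 at 84.77 to 141.5 TPM and ERBB2 at 26.55 to 34.9 TPM. GATA3 had 3.83 to 4.69 TPM and FOXA1 3.72 to 5.45 TPM. Of the 7 luminal markers 5 were tested and 0 called, and their summed level was 125 to 170 TPM in shCTL and 131 to 188 TPM in shRor1. Of the 5, 4 had a positive and 1, GATA3, a negative fold change (-0.11), and CDH1 was the 1 without overlap, with 0.80 to 1.22 TPM in shCTL and 1.36 to 1.47 TPM in shRor1, where 6.48% of all tested genes were higher without overlap. The leukocyte genes PTPRC and CD3E did not exceed 0.39 and 0.03 TPM, whereas CD68, a macrophage gene also found in tumour cell lines, had 138 to 239 TPM with overlapping groups. The endothelial gene CDH5 had 0.32 to 1.56 TPM with overlapping groups, and PECAM1 was not found by its symbol. The libraries did not group by condition, since 5 of the 6 were closest to a library of the other condition by the correlation of log2(TPM + 1) across genes, which was between 0.984 and 0.993 for all pairs.

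The genes whose pattern over the 6 libraries was most like that of ROR1 were sought among the 11144 tested genes with a mean of at least 5 TPM. By Pearson's r of log2(TPM + 1) they were EIF3CL (0.95), ENSG00000256591 (0.93), BRSK1 (0.93), ENSG00000171471 (0.93) and TGFB1I1 (0.92). The 6 points share the condition and the library, and with so many genes compared, values of this size are a description only. EIF3CL has a near-identical copy, EIF3C, between which reads could have been split. For RYK the most similar genes were RBMXL1, GCSH and RFC3 (r from 0.98 to 0.99) and for PTK7 ITPR3, MYLK and USP20 (0.99 each). There were 32 genes with r of 0.95 or more to RYK and 44 to PTK7, but 1 to ROR1.

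**Figure D4:**
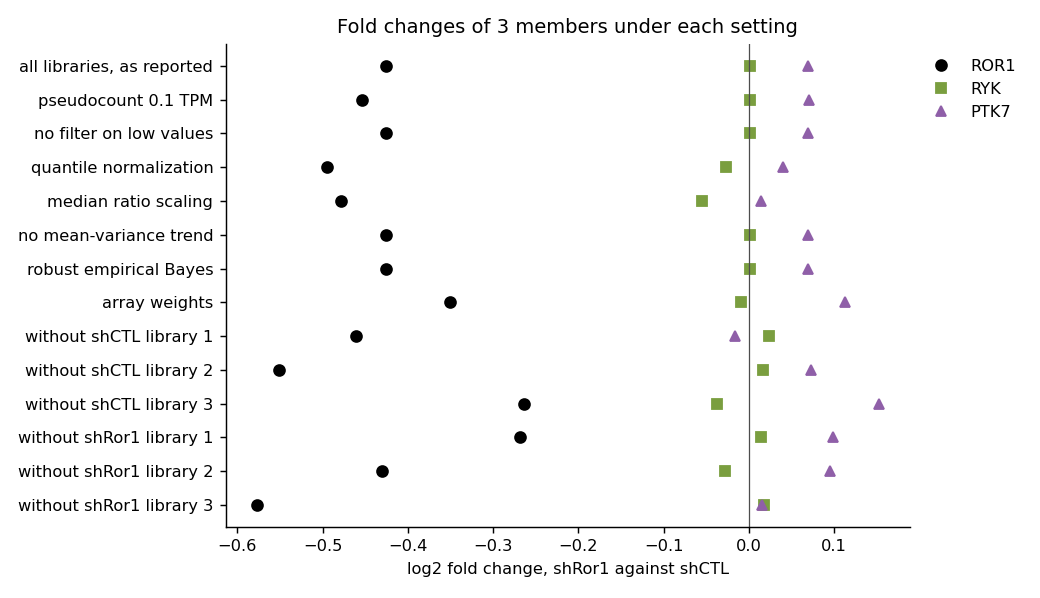
Log2 fold change of ROR1 (circles), RYK (squares) and PTK7 (triangles) between shRor1 and shCTL (horizontal axis) as reported and under 13 alternative settings (rows). ROR1 stays negative, from -0.58 to -0.26, while RYK and PTK7 lie around 0. The rows for no filter, no trend and robust empirical Bayes repeat the reported fold changes by construction.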

How the data were processed

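RNA from MDA-MB-231 shCTL and shRor1 cells (3 libraries each) was sequenced by the authors with a strand-specific kit as single reads of 50 bases. The kit is given as one for total RNA by the paper, while the labels say polyadenylated RNA. For alignment the authors used STAR with GRCh37 and an Ensembl annotation, and they estimated gene abundances with RSEM 1.2.5 per the labels. The deposited values are TPM with 2 decimals, each library summing to 1000000, although the table is named for expected counts. They hold no depth, so no counting interval was given, and the edgeR model used by the authors could not be fitted. With that model the paper named AGR2 and a gene for an uncharacterized protein as significant. From the ranks of all genes it also reported enrichment of its sets for non-canonical Wnt signaling and for inhibition of canonical Wnt signaling. Its sets for canonical Wnt signaling and for regulation of Wnt signaling were not significant. No set was tested here. Column headers carry the condition but no replicate number, and the number of unused sample columns was 0.

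The filter kept 16554 of 57445 genes, those reaching 1 TPM in 3 or more libraries, which were compared on log2(TPM + 1) with limma 3.58.1 in R 4.3.3 (condition as the only term, empirical Bayes with trend) and adjusted by Benjamini-Hochberg at 0.05. The pseudocount of 1 understates changes of low genes. Single values were compared by exact two-sided permutation tests of 3 against 3 libraries. The fit was also run on data simulated for this comparison with 16554 genes, of which 200 changed. It recovered 70.3% of changes by 1 and 94.7% of changes by 2 on the log2 scale. The mean number of false calls was 7.8 for changes by 1 and 10.4 for changes by 2. The simulated noise was normal and independent between genes and libraries, so differences between libraries that many genes share were absent from it. Recovery with such differences, and recovery of a change in a single gene, were not tested. Symbols came from a table of gene names (55022 identifiers matched) and gene models from a GENCODE annotation mapped to GRCh37. Sequences were read from that genome and its transcripts.

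Members and lists were chosen with earlier results of these data known. Named genes were the members, in each list the 3 with the highest mean TPM and those with an unadjusted p under 0.05, the kinases next to a member in order of level, the 3 highest kinases, the genes most correlated with a member, and genes overlapping a member. The cell type markers were named as checks, and WNT2B, FGFR4, DOK7 and RAPSN, outside this rule, after their values were seen. Alternatives were a pseudocount of 0.1, no filter, quantile normalization, median ratio scaling, no trend, robust empirical Bayes, array weights, and each library left out in turn. The result of 1 further gene list is not reported here.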

Additional observations from a re-analysis of the deposited data

How the results depend on the processing

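The log2 fold change of ROR1 stayed negative in each of 13 alternatives, between -0.58 and -0.26 (-0.26 without the third shCTL and -0.27 without the first shRor1 library), with adjusted p from 0.625 to 1.00 and unadjusted p from 0.0151 to 0.207 in limma. RYK changed sign under 5 alternatives, with -0.027 after quantile normalization, -0.055 after median ratio scaling, -0.00893 with array weights, and -0.038 to 0.024 when single libraries were omitted (-0.038 without the third shCTL and -0.028 without the second shRor1 library), and the cause was not tested. PTK7 was between -0.016 and 0.152 with each library left out, negative only without the first shCTL library. For MUSK the value moved from -0.07 to -0.29 with a pseudocount of 0.1, as the smaller pseudocount implies for so low a gene. The log2 ratio of ROR1 to RYK plus PTK7 stayed between -0.63 and -0.34. The number of genes called over the whole table was from 0 to 1 with each library left out (1 without the third shRor1 library) and 0 under the other alternatives, and no list member was called under the 8 alternatives run for the lists. ROR1-AS1 was higher under all 13, by 0.13 to 0.29. Of the 13, no filter, no trend and robust empirical Bayes leave each fold change as it is, so they could not alter a sign. The rank of ROR2 in shCTL by median was 49, and other members moved by at most 1 place. No paired analysis was possible because replicate numbers are absent from the column headers. Genes at an unadjusted p under 0.05 numbered 472 as reported, 1363 with no filter, 859 with array weights and 278 to 1720 with single libraries omitted. Since TPM holds no read numbers, the counting error of MUSK and ROR2 is unknown.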
